A study of Danio rerio with 4 samples.

Results

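The genes described here encode the proteins of the small subunit of the cytosolic ribosome. They were taken from the count table by symbol: *rps* followed by a digit, or *rpsa*, *faua*, *faub* or *fau*, leaving out *rps27l*, *rps19bp1* and the *rps6k* kinases. The rule found 37 of the 32520 genes in the table. They carry 31 protein names, because 6 of these names are each held by a pair of genes (12 genes) and 25 genes stand alone. The symbol *rpsa* itself matched no gene. A gene that the name table lists as *rpsa2* fell outside the rule and is described apart from the counts.

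RNA was sequenced from whole zebrafish larvae at 8 dpf (days post fertilization), in 2 libraries of *grwd1* crispants and 2 libraries of wt larvae. Crispants are the larvae that grew from embryos injected at the one-cell stage with Cas9 mRNA and 2 guide RNAs against *grwd1*. They are mosaic, so edited and unedited cells are both in the RNA, and 15 larvae were pooled for each group. The wt larvae carried no edit, and both groups were raised in the same medium. GRWD1 is a WD40 repeat protein known for a role in assembling the large ribosomal subunit. The study made crispants to ask what loss of *grwd1* does in a larva. No source used here says whether the duplicate libraries came from separate pools of larvae, so a p-value here speaks of the variation from library to library, part or all of which may be technical.

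The guides are shown because they define the edit that sets the groups apart. Each is written 5′ to 3′ and no base is marked.
gRNA1: gatacatgcggtaagcggag
gRNA2: actccaccgacagatcccat

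The small subunit, called 40S, binds the mRNA, carries the decoding site and is built from a single ribosomal RNA and a set of proteins. Its head, body and platform enclose the channel through which the mRNA runs. Ribosomal protein mRNAs are among the most abundant in growing cells, and their translation in vertebrates is governed together through a pyrimidine tract at their start. In humans, inactivation of a single copy of several of these genes causes Diamond-Blackfan anemia, a failure of red cell production, and zebrafish larvae are a common model for it.

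The libraries held 18510962 and 15916216 counts in crispants, against 16086482 and 18619802 in wt, and the 50 most abundant genes took 24.8% to 25.6% of each. Levels are given as CPM (counts per 1e6 counts of library size, with sizes adjusted by TMM factors of 0.971 to 1.04). The targeted gene *grwd1* stood at 6.40 and 6.34 CPM in crispants, against 25.0 and 24.1 CPM in wt (log2 fold change -1.94, standard error (SE) 0.18, edgeR adjusted p = 3.25e-14). The libraries of a group were not repeats of 1 file, with a chi-square per degree of freedom of 5.00 between the counts of the crispant libraries and 4.47 between those of the wt libraries. Of 20479 genes tested with edgeR's quasi-likelihood test, 1524 (7.44%) were lower in crispants and 1839 (8.98%) were higher at a Benjamini-Hochberg adjusted p of at most 0.05. Among the genes called, 54.7% were thus higher, and 70.2% were higher when library totals alone set the scale, which moved the median log2 fold change of all genes from about zero to 0.08.

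The small-subunit genes were lower in crispants almost throughout, and by similar amounts. Of the 36 members tested, 34 fell, against a background of 7.44% of genes lower. The gene *faub* rose, against a background of 8.98% of genes higher. Of the others, 1 scarce member did not pass and 1 had too few counts to be tested. The median log2 fold change of the 36 members was -0.40, against 0.00457 over all genes tested. Both crispant libraries lay below both wt libraries in 33 of the 36 members, against 26.5% of all genes tested. With library totals alone the median was -0.32, and 33 members were lower. Each library was left out in turn, and 32 to 34 members were then lower. In whole larvae, fewer cells of a type and less RNA per cell cannot be told apart.

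Most of the counts belonged to 34 members with mean levels above 100 CPM and with 3580 to 89080 counts in a library. All 34 fell, to between 64.4% and 82.8% of the wt mean, with a median of 75.5%. Their log2 fold changes ran from -0.63 to -0.27 with a median of -0.41, and their SEs from 0.061 to 0.077. The middle quartiles ran from -0.44 to -0.34. Only 4 fell below -0.5, 28 lay between -0.5 and -0.3, and 2 lay above -0.3. Across these 34 genes, Spearman's rho between the mean wt CPM, not scaled by gene length, and the change was 0.05. The genes share the same libraries and are not independent, and the wt level is itself part of the change.

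Summed over the 37 members, the small-subunit mRNAs took 3.41% and 3.61% of all counts in crispants, against 4.48% and 4.37% in wt. As CPM, the sums were 32806 and 35707 in crispants and 46193 and 44639 in wt. The higher crispant sum thus lay below the lower wt sum, and the log2 ratio of the means was -0.41. An exact permutation test (two-sided) of 2 libraries against 2 cannot go below p = 0.33, which is the value for this sum.

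**Figure D1:**
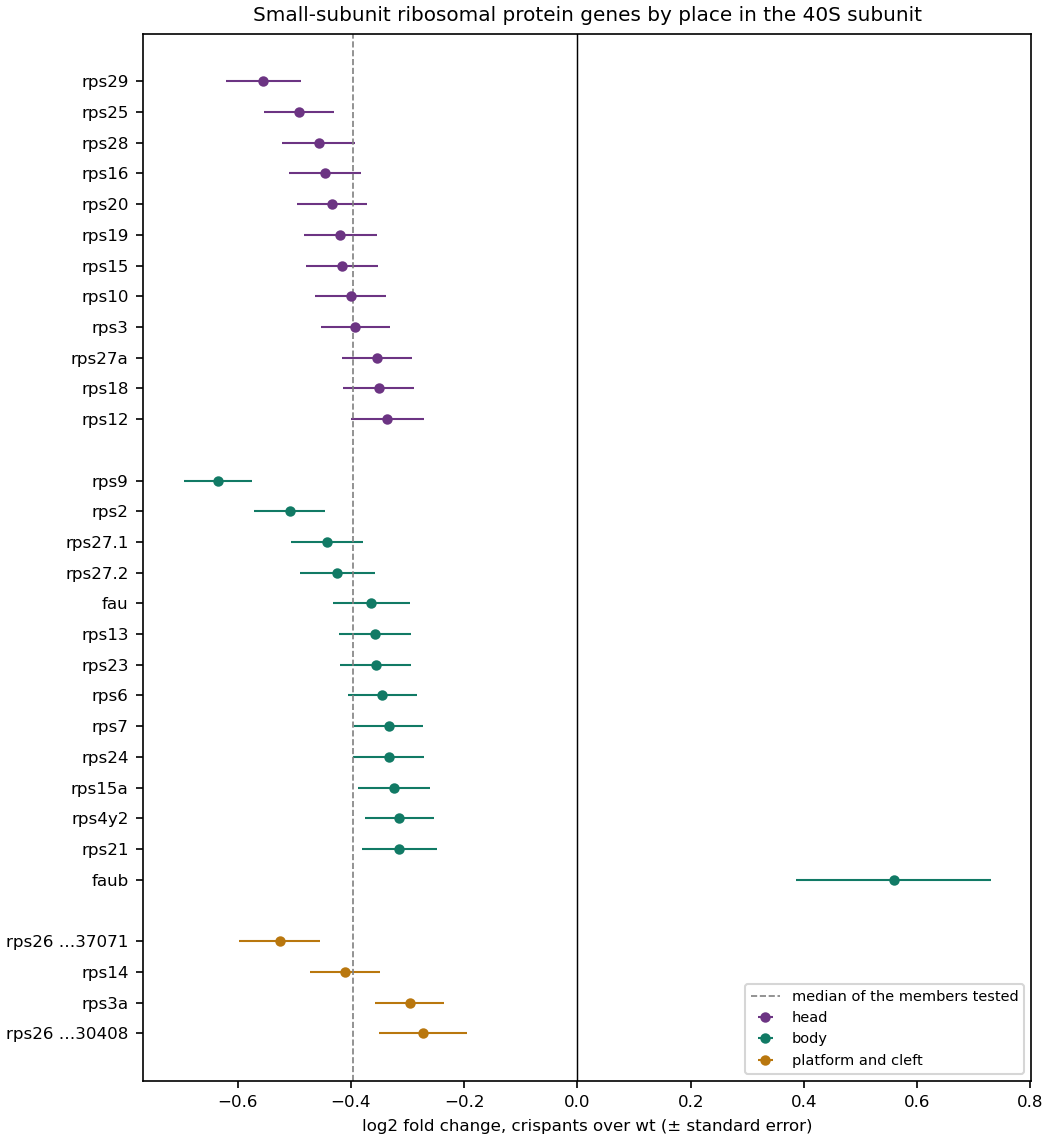
Log2 fold change (crispants over wt, horizontal axis) of 30 small-subunit genes. They are grouped from top to bottom by place in the 40S subunit (head, body, platform and cleft). Bars are ± 1 standard error of the edgeR fit to 2 libraries a group, which shares variance across genes. All points but that of *faub* lie left of zero, around the dashed line at -0.40, the median of the 36 genes tested.

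The 2 crispant libraries were not at the same level. Crispant 2 lay above crispant 1 in 31 of the 34 abundant members, by a median of 0.11 on the log2 scale. Among the 3 exceptions were *rps18*, a head protein, and 1 gene named *rps26*. The wt libraries showed no such lean, since wt 2 lay above wt 1 in 14 of the 34, with a median difference of -0.02. Without crispant 1 the median log2 fold change over the members tested was -0.33, and without crispant 2 it was -0.45.

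The head of the subunit closes over the mRNA and carries sites for the tRNAs. There, 15 of 15 genes fell, with a median log2 fold change of -0.42 and a range from -0.55 to -0.34. The counts for head, body and platform stand beside 7.44% of all genes lower and 8.98% higher. The strongest fall in the head was that of *rps29*, which encodes a small zinc-binding protein next to the decoding region. It stood at 309 and 321 CPM in crispants, against 475 and 449.6 CPM in wt. Every crispant value was at least 100 CPM below every wt value (log2 fold change -0.55, SE 0.07, edgeR adjusted p = 6.74e-10).

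The next head gene was *rps25*, whose protein is used by several viral RNAs to start translation without a cap. Its levels were 862 and 933 CPM in crispants, against 1259 and 1265 CPM in wt. The wt pair almost coincided, and the crispants reached 71.1% of it, with a 95% interval of 65.2% to 77.5% (log2 fold change -0.49, SE 0.06, edgeR adjusted p = 3.09e-09). The other head genes fell less than these. *rps28*, *rps16* and *rps20* changed by -0.46, -0.45 and -0.43 on the log2 scale, *rps15* by -0.42, and *rps10* and *rps3* by -0.40 and -0.39. The protein of *rps3* lines the entry of the mRNA channel. The smallest head changes were those of *rps27a*, which encodes a ribosomal protein fused to ubiquitin (-0.35), of *rps18* (-0.35) and of *rps12*, a protein of the beak (-0.34).

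In the body, which holds the decoding site and the entry side of the mRNA channel, 15 of 17 genes tested fell, 1 rose and 1 did not pass, with a median log2 fold change of -0.34. Summed levels changed alike in body and head, with log2 ratios of -0.42 and -0.41. The border of body and platform is not sharp, and *rps13*, *rps15a* and *rps27* touch both. The body held the member with the strongest fall, *rps9*, whose counterpart in yeast is known for a role in the accuracy of decoding. It stood at 1733 and 1931 CPM in crispants, against 2867 and 2821 CPM in wt. The groups were far apart, at 1832 ± 140.3 CPM in crispants and 2844 ± 33.2 CPM in wt (SD, n = 2 libraries each; log2 fold change -0.63, SE 0.06, edgeR adjusted p = 1.55e-13). Crispants thus reached 64.4% of the wt level, with a 95% interval of 59.23% to 70.1%.

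The gene *rps2* encodes the neighbor of Rps9 at the mRNA entry, also known from yeast for decoding accuracy. Its levels were 3343 and 3932 CPM in crispants, against 5456 and 4890 CPM in wt. The libraries of each group spread by more than those of *rps9*, but the groups did not overlap (log2 fold change -0.51, SE 0.06, edgeR adjusted p = 1.14e-09).

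The other body genes that fell did so by less. They included *rps13* and *rps23* at -0.36, *rps6* at -0.34, *rps7* and *rps24* at -0.33, *rps15a* at -0.32, and *rps21* and the gene listed as *rps4y2* at -0.31. The gene listed as *rps4y2* encodes the zebrafish counterpart of the protein that human RPS4X and RPS4Y genes make (ENSDARG00000014690). The protein of *rps6* is the classic substrate of the S6 kinases. Its levels were 1900 and 2095 CPM in crispants, against 2652 and 2419 CPM in wt. The groups did not overlap, yet the call was just lost without wt replicate 1 (edgeR adjusted p = 0.0504, against 1.29e-05 with all libraries).

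On the platform and in the cleft, near the place where the mRNA leaves the subunit, 4 of 4 genes fell, with a median log2 fold change of -0.35. The gene *rps14*, whose human counterpart lies in the region lost in the 5q deletion syndrome, stood at 1267 and 1438 CPM in crispants, against 1782 and 1812 CPM in wt. Its groups did not overlap (log2 fold change -0.41, SE 0.06, edgeR adjusted p = 3.80e-07). The gene *rps3a*, a protein of the platform, stood at 2017 and 2211 CPM in crispants, against 2702 and 2490 CPM in wt. Its fall was among the smallest (log2 fold change -0.30, SE 0.06, edgeR adjusted p = 1.55e-04), and the call was lost without wt replicate 1 (adjusted p = 0.116). Both were chosen for naming after their values were seen, as was *rps6*. The other platform genes are the *rps26* pair.

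Pairs of genes that share a protein name show how evenly copies moved, and 3 of the pairs are described. How reads that fit both copies were counted is not given in the sources used here, so the split within each pair is uncertain. The *rps27* pair, a zinc-binding protein, kept its split. *rps27.1* stood at 562 and 589 CPM in crispants, against 771 and 792 CPM in wt (log2 fold change -0.44, SE 0.06, edgeR adjusted p = 1.14e-07). *rps27.2* stood at 385 and 402.5 CPM in crispants, against 517 and 539 CPM in wt (log2 fold change -0.42, SE 0.07, edgeR adjusted p = 6.50e-07). Neither gene overlapped between groups. The share of *rps27.2* was 40.7% and 40.6% in crispants, against 40.1% and 40.5% in wt, so the 4 shares lay within 1 percentage point.

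The *rps26* pair, a protein at the mRNA exit, was less even. The lesser copy (ENSDARG00000037071) stood at 208 and 222 CPM in crispants, against 328 and 290.4 CPM in wt, without overlap (log2 fold change -0.53, SE 0.07, edgeR adjusted p = 2.14e-08). The main copy (ENSDARG00000030408) stood at 571 and 414 CPM in crispants, against 562 and 628 CPM in wt. Here crispant 1 lay between the wt libraries and only crispant 2 was low. The call (log2 fold change -0.27, SE 0.08, edgeR adjusted p = 0.00749) was lost with DESeq2 (adjusted p = 0.570), with library totals alone (0.0621), without crispant replicate 2 (log2 fold change -0.07, adjusted p = 0.609) and without wt replicate 2 (log2 fold change -0.19, adjusted p = 0.226). Without crispant replicate 1 the log2 fold change was -0.53. The lesser copy held 26.7% and 35.0% of the pair in crispants, against 36.9% and 31.6% in wt, and these ranges overlapped.

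The pair of *fau* genes encodes a small ribosomal protein made as a fusion with a ubiquitin-like protein. The main gene, *fau*, stood at 317 and 353 CPM in crispants, against 448 and 414 CPM in wt, without overlap (log2 fold change -0.36, SE 0.07, edgeR adjusted p = 3.39e-05). The minor gene, *faub*, stood at 17.0 and 19.0 CPM in crispants, against 13.0 and 11.5 CPM in wt. It was the single member that rose, to 147% of the wt level with a 95% interval of 116% to 187% (log2 fold change 0.56, SE 0.17, edgeR adjusted p = 0.0159). That call was lost with DESeq2 (adjusted p = 0.0843), without crispant replicate 2 (0.133) and without wt replicate 2 (0.147). The share of *faub* in the pair's counts was 5.09% and 5.11% in crispants, against 2.82% and 2.70% in wt. The shares did not overlap, but 2 libraries against 2 cannot go below p = 0.33 in an exact permutation test. The pair together stood at 334 and 372 CPM in crispants and 461 and 425 CPM in wt, so the sum followed *fau*.

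**Figure D2:**
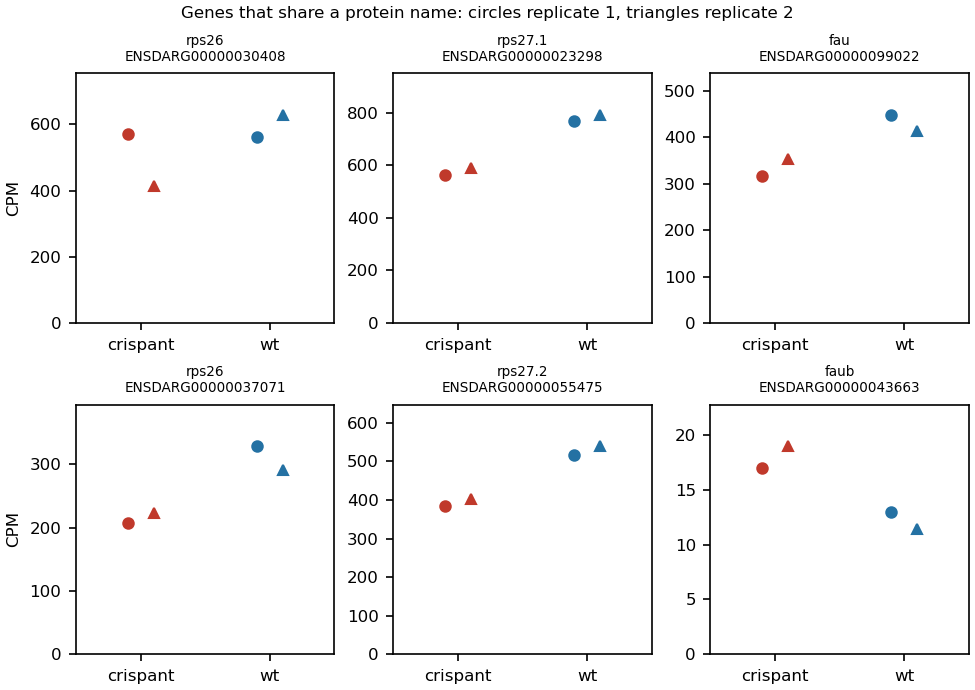
CPM (vertical axis of each panel, starting at zero) of 3 pairs of genes that share a protein name, 1 pair per column, with crispants left of wt; circles are replicate 1 and triangles replicate 2 of each group. Both copies of *rps27* lie lower in crispants, crispant 1 of the main *rps26* gene (571 CPM) lies beside wt, and *faub* alone lies higher.

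Since the members fell together, each was also set against their common change. Library sizes were replaced by the summed small-subunit counts, a scaling chosen after the data were seen, so that a value of zero means a gene that kept its share of the small-subunit total. Under this scaling 0.61% of all genes tested were lower and 40.6% were higher, and the median of all genes moved to 0.41. Of the 36 members, 2 were lower and 2 were higher. *rps9* lost share (-0.23, SE 0.04, edgeR adjusted p = 1.07e-04). *rps2* lost a little (-0.10, SE 0.04, edgeR adjusted p = 0.0469). *faub* gained share (0.97, SE 0.18, edgeR adjusted p = 6.64e-05), as did *rps3a* (0.11, SE 0.04, edgeR adjusted p = 0.0443).

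Under the alternatives tried for this scaling (the total of all ribosomal protein genes, an adjusted p of 0.01, a block for the replicate number and each library left out), *rps9* and *faub* passed each time, while *rps2* and *rps3a* did not. *rps2* did not pass without crispant replicate 1 (adjusted p = 0.533) or without wt replicate 1 (0.581), and *rps3a* failed when any single library was left out (adjusted p from 0.102 to 0.392). The other 31 abundant members lay between -0.15 and 0.14 and did not pass. *rps29* was the lowest of them (-0.15, SE 0.07, edgeR adjusted p = 0.0836). Without *rps2* and *rps9*, which are themselves part of the total, the summed level was 27730 and 29844 CPM in crispants and 37870 and 36929 CPM in wt (log2 ratio -0.38).

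**Figure D3:**
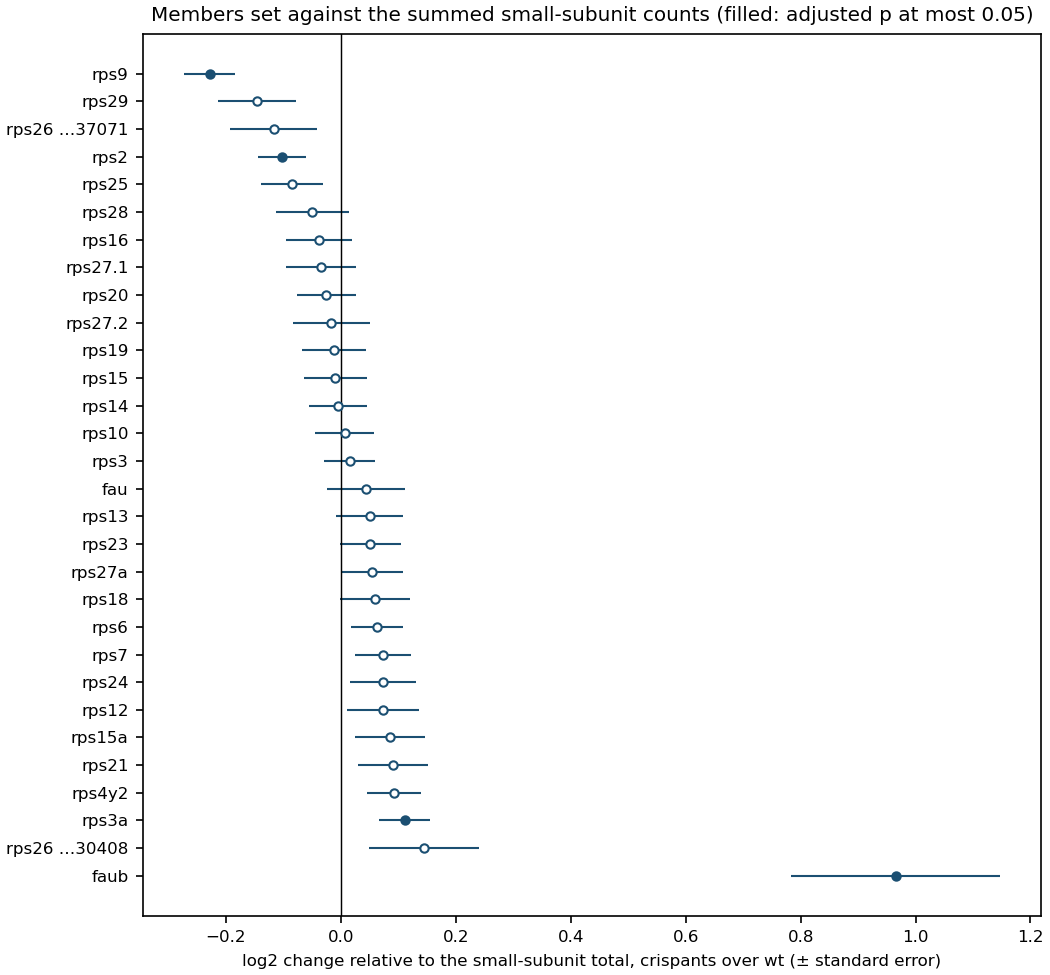
Log2 change of 30 small-subunit genes relative to the summed small-subunit counts (crispants over wt, horizontal axis), sorted from lowest to highest. Bars are ± 1 standard error of the edgeR fit to 2 libraries a group, which shares variance across genes. Filled points passed an adjusted p of 0.05: *rps9* (-0.23) and *rps2* (-0.10) on the left, *rps3a* (0.11) and *faub* (0.97) on the right.

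Among zebrafish counterparts of human Diamond-Blackfan anemia genes, 14 of 14 fell, with a median log2 fold change of -0.42 and a range from -0.55 to -0.27. The other members had 20 of 22 lower and a median of -0.36. These counts stand beside 7.44% of all genes lower. DESeq2 called 13 of the 14 counterparts, without the main *rps26* copy. The summed levels leaned the other way from the medians, with a log2 ratio of -0.39 for the 14 and -0.41 for the other members. The ranges overlapped, and no test between these sets was made. The gene *rps19*, the human counterpart of which is the one most often mutated in that disease, was named for that reason after its value was seen. It stood at 708 and 791 CPM in crispants, against 1029 and 974 CPM in wt (log2 fold change -0.42, SE 0.06, edgeR adjusted p = 4.98e-07). It reached 74.8% of the wt level, close to the median of the abundant members.

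Among genes outside the rule, *rpsa2* and *rack1* moved with the members. *rps27l*, which the rule leaves out by name, rose instead. Its levels were 113.5 and 122 CPM in crispants, against 44.6 and 43.6 CPM in wt (log2 fold change 1.42, SE 0.09, edgeR adjusted p = 1.23e-21). The gene listed as *rpsa2* (ENSDARG00000019181) stood at 2667 and 2942 CPM in crispants, against 3761 and 3509 CPM in wt (log2 fold change -0.37, SE 0.06, edgeR adjusted p = 1.40e-06). *rack1*, a signaling scaffold bound to the head, stood at 2308 and 2531 CPM in crispants, against 3185 and 2964 CPM in wt (log2 fold change -0.35, SE 0.06, edgeR adjusted p = 8.43e-06). Neither *rpsa2* nor *rack1* overlapped between groups.

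The large subunit was lower to a like degree. Of its 44 genes tested (45 in the table), 41 fell, 1 rose and 2 did not pass. Over all genes tested, 7.44% were lower and 8.98% were higher. The median log2 fold change of the large-subunit genes was -0.41, beside -0.40 for the small subunit. The summed levels were 51861 and 56212 CPM in crispants, against 70121 and 67932 CPM in wt. The ratio of small-subunit to large-subunit counts was 0.633 and 0.635 in crispants, against 0.659 and 0.657 in wt, so the groups did not overlap. The large-subunit gene that rose was *rpl3*, whose protein is bound by the yeast counterpart of GRWD1, at 4484 and 4862 CPM in crispants, against 4181 and 4016 CPM in wt (log2 fold change 0.19, SE 0.06, edgeR adjusted p = 0.0158). That call was lost without crispant replicate 2 (adjusted p = 0.0635), and without either wt replicate (0.192 and 0.375). Leaving *rpl3* out of the sum gave ratios of 0.692 and 0.695 in crispants and of 0.7005 and 0.698 in wt. The log2 difference of the ratio was then -0.01, beside -0.05 with *rpl3* included. An exact permutation test again cannot go below p = 0.33.

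**Figure D4:**
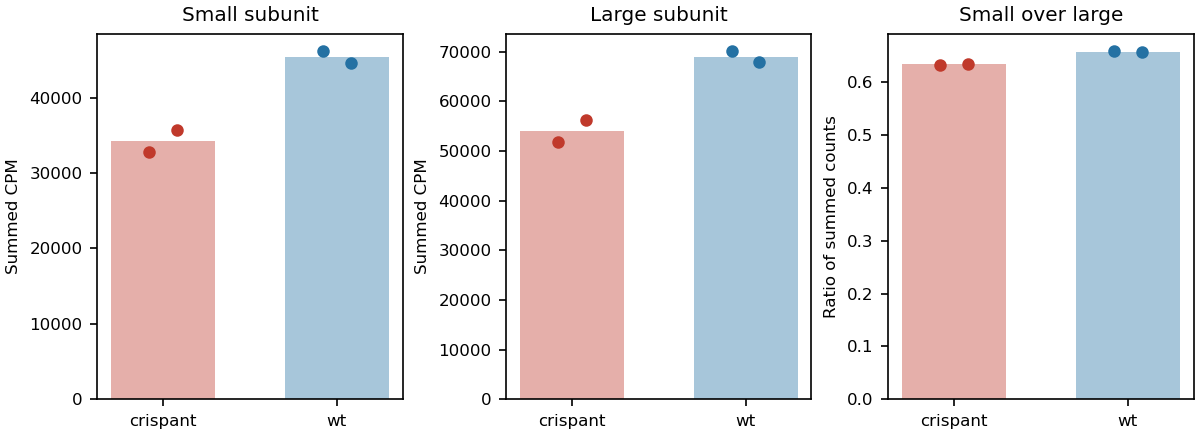
Summed CPM of the 37 small-subunit genes (left) and the 45 large-subunit genes (middle), and the ratio of their counts (right), for crispants and wt; bars are means from zero and points are the 2 libraries of each group. Both sums are lower in crispants, and the ratio is 0.633 and 0.635 in crispants beside 0.659 and 0.657 in wt.

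The factors that build the 40S subunit mostly did not pass the test. Of 57 such names, 55 were found and tested, and 6 were lower, 2 were higher and 47 did not pass, with a median log2 fold change of -0.03. The share lower was 10.9%, beside 7.44% of all genes, and the share higher was 3.64%, beside 8.98% of all genes. With DESeq2, 5 of the 55 were lower and 1 was higher, beside 1009 lower and 1105 higher of 24863 genes. Most of the 55 were scarcer than the abundant members and had larger SEs. A change of the members' size could therefore go uncalled in the scarcest of them. Their summed levels were 3133 and 3231 CPM in crispants, against 3454 and 3468 CPM in wt, without overlap (log2 ratio -0.12). The 3 with the smallest p among those lower were *bysl*, *pno1* and *utp4*. *bysl*, which encodes a factor that travels with the 40S precursor, stood at 168 and 185 CPM in crispants, against 259 and 242 CPM in wt (log2 fold change -0.51, SE 0.07, edgeR adjusted p = 8.25e-08). *pno1*, its partner at the platform of the precursor, stood at 260.3 and 303 CPM in crispants, against 377 and 369.6 CPM in wt (log2 fold change -0.41, SE 0.07, edgeR adjusted p = 5.87e-06).

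*utp4*, a subunit of the early complex on the ribosomal RNA precursor, stood at 112 and 103 CPM in crispants, against 135 and 134 CPM in wt (log2 fold change -0.33, SE 0.08, edgeR adjusted p = 0.00134). None of these overlapped between groups. The 2 higher genes were *riok3*, an atypical kinase (0.33, SE 0.09, edgeR adjusted p = 0.00583), and *wdr36*, a subunit of an early precursor complex (0.30, SE 0.11, edgeR adjusted p = 0.0481). *riok3* lost the call without crispant replicate 1 (adjusted p = 0.0631) or wt replicate 1 (0.263). *wdr36* lost it with DESeq2 (0.182), without crispant replicate 2 (0.386) and without either wt replicate (0.136 and 0.209). The mitochondrial small-subunit proteins, which belong to another ribosome, had 0 of 30 genes called by edgeR, beside 7.44% of all genes lower and 8.98% higher. At an unadjusted p under 0.05 there were also 0, beside 5693 of all 20479 genes tested. DESeq2 and limma-voom called 0 of the 30 too, beside 2114 and 3408 of the 20479. The median log2 fold change of the 30 was 0.05. Their summed levels were 555 and 606 CPM in crispants, against 583 and 579 CPM in wt. These genes were thus far scarcer than the abundant members, and a change in a single one could more easily go uncalled.

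Markers of tissues in a whole larva also differed between the groups, and their counts stand beside 7.44% of all genes lower and 8.98% higher. Enterocyte markers had 9 of 13 genes higher and 1 lower, with summed levels of 3008 and 2917 CPM in crispants, against 1608 and 1632 CPM in wt. The largest part of these levels was *apobb.1*, at 1866 and 1709 CPM in crispants, against 786 and 808 CPM in wt. Exocrine pancreas markers, mostly digestive enzymes, had 9 of 15 lower and 2 higher, with 5869 and 6421 CPM in crispants, against 9795 and 9506 CPM in wt. Proliferating cell markers had 8 of 19 higher, with 256 and 264 CPM in crispants, against 196 and 189.6 CPM in wt. With DESeq2 that count was 3 of 20, beside 1105 of 24863 genes higher. It was also smaller when any single library was left out, as was the count of all genes called higher. Skeletal muscle markers had 4 of 9 higher, with 80921 and 84096 CPM in crispants, against 75674 and 75463 CPM in wt. All 4 calls were lost without wt replicate 1 (edgeR adjusted p from 0.140 to 0.472), without wt replicate 2 the list had 2 higher, and without crispant replicate 2 the list had 3 higher and 3 lower. Of the names listed, 12 of 15 enterocyte, 13 of 22 pancreas, 18 of 19 proliferating cell and 9 of 15 muscle names were found. Some names matched more than 1 gene. No marker found was at zero in every library. None of these 4 sums overlapped between the groups, and their part in the small-subunit result was not tested.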

How the data were processed

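The deposited values are whole-number counts of reads per gene. The authors used Trimmomatic 0.39 for trimming, HISAT2 for alignment to GRCz11 and featureCounts for counting, as the submitters' processing notes and the study's methods state. Which annotation release and strand setting were used, and how reads that fit several genes were treated, is not given in the sources used here. A kit that removes ribosomal RNA was used, and the labels also call the libraries polyA-enriched. Groups were taken from the sample labels.

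Of 32667 lines, 147 exact repeats were dropped (0 of them members). Symbols came from a name table that matched 29201 of 32520 genes (89.8%). The main test was edgeR 4.0.16 (filterByExpr, TMM, quasi-likelihood, group as the only term, 4 libraries, 2 residual degrees of freedom, square root of the common dispersion 0.106) in R 4.3.3, with Benjamini-Hochberg adjustment over 20479 genes. CPM uses TMM-scaled sizes, and SDs are over 2 libraries. An SE is the log2 fold change over the root of its F statistic, with 95% intervals from the t quantile at the test's degrees of freedom. These include what edgeR adds by sharing variance across genes, beyond the 2 residual ones. SEs and intervals are therefore not the spread of 2 libraries alone. The script was tested on simulated data. Levels between genes were planned to be compared per length. No lengths of the files' annotation were used here, so no comparison per length was made.

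Members and lists were chosen with earlier results of these data known. Named in full by rule were the 6 members with the smallest p among those lower, those that rose, did not pass or were not tested, pairs that share a protein, *rack1* and up to 3 of the 40S assembly factors in each direction. As an exception to this rule, results of some members, among them 3 of the 6 pairs and those that did not pass or were not tested, are not reported here singly, although counts, medians and sums include them. The place in the subunit and the Diamond-Blackfan list came from general knowledge. Alternatives were DESeq2 1.42.0, limma-voom (limma 3.58.1), an adjusted p of 0.01, RLE factors, library totals, TMM without ribosomal protein genes, a floor of 10 counts in each library, no filter at all, a block for the replicate number, and leaving out each library.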

Additional observations from a re-analysis of the deposited data

How the results depend on the processing

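The fall of the small-subunit genes kept its direction in each alternative, with 32 to 34 members lower. Over the 30 members given singly and 13 alternatives, 380 gene values stayed on their side of the threshold, 10 (in 4 genes) lost it and 0 reversed. The count of members higher was 0 with DESeq2 and 0 at an adjusted p of 0.01, and ran from 0 to 1 when a library was left out. At an unadjusted p under 0.05, 35 of the 36 members tested passed in either direction, against 5693 of all 20479 genes tested. The median log2 fold change of the members was -0.32 with library totals alone and ran from -0.45 to -0.33 when a library was left out. The causes were not tested.

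Relative to the small-subunit total, 4 members departed; 2 did so at an adjusted p of 0.01, and 2 to 5 when a library was left out. Scalings to ribosomal protein totals, the sum without *rps2* and *rps9* and the ratio without *rpl3* were chosen after seeing the data.

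Same-numbered libraries did not deviate together (correlation of -0.00665 over the genes tested, and -0.29 over the members), so the numbers were not taken as pairs. With a replicate block, 34 members were lower, 1 was higher and the median was -0.40, while 2 members departed from the small-subunit total, without *rps2* (adjusted p = 0.141) and *rps3a* (0.162). With 2 libraries a group, departures of single members by 0.1 on the log2 scale were near the limit of detection.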
